A study of Homo sapiens with 4 samples.

Results

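Mitochondrial ribosomal proteins are the nuclear-encoded proteins of the ribosome inside mitochondria. The genes described here are the protein-coding rows of a single-cell count table whose symbol starts with MRPL or MRPS followed by a digit, which gave 78 genes, 49 named MRPL and 29 named MRPS, of 19823 protein-coding symbols and 60651 gene IDs. The cells are CHP134, an established human neuroblastoma line from a tumour of the adrenal gland, and each treatment lasted 24 h. Cells were given 5 µM 13cRA (isotretinoin, a retinoic acid isomer used against neuroblastoma), 10 µM doxazosin (an alpha-1 adrenoceptor blocker), the combination of these doses, or the solvent DMSO at 0.04%. With 1 line and 1 sample per treatment, the differences are descriptions of these libraries and carry no test.

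The mitochondrial ribosome makes the membrane proteins of the respiratory chain that mitochondrial DNA encodes. Its ribosomal RNAs, MT-RNR1 of the small subunit and MT-RNR2 of the large subunit, and its messenger RNAs are transcribed inside the organelle. All of its proteins are made in the cytosol from nuclear genes and imported. Some descend from bacterial ribosomal proteins and others are found only in mitochondria. By role, 51 of the 78 genes encode large subunit proteins and 26 small subunit proteins. MRPS30 and MRPS18A carry the S of the small subunit in their names but sit in the large subunit. MRPS36 is now counted as a part of the alpha-ketoglutarate dehydrogenase complex and not of the ribosome.

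After cells with fewer than 500 genes or over 25% of counts from MT- genes (the genes of mitochondrial DNA) were set aside, 318 cells remained for 13cRA, 239 for doxazosin, 287 for the combination and 353 for DMSO. The summed counts ranged from 22636509 under 13cRA to 72192743 under the combination. The 13cRA library was the shallowest. With every cell thinned at random to 34000 counts, its cells also held fewer genes, with a median of 3892, against 4773 under doxazosin, 4709 under the combination and 4686 under DMSO. No cell name was shared between treatments. Of 13 markers of adrenergic neuroblastoma, 10 averaged at least 10 CPM (counts scaled to a total of 1e+06), although DBH and TH, enzymes of noradrenaline synthesis, reached at most 0.177 CPM. Summed Schwann cell markers were 10.4 CPM under 13cRA, against 1.10 under DMSO, and summed endothelial markers 23.9 against 6.31 CPM. The part of these markers, of depth and of genes per cell in the 13cRA values was not tested. A set of thinned cells with 4000 to 4600 genes, used below, narrows the gap in genes per cell without closing it: its median was 4178 under 13cRA, against 4483 under doxazosin, 4450 under the combination and 4457 under DMSO.

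The 78 genes together took 0.911% of counts under 13cRA, 1.000% under doxazosin, 0.998% under the combination and 1.004% under DMSO. The 13cRA library thus had the lowest share. A level is given below as CPM of the summed cells, with the exact 95% Poisson interval of its count in brackets. Since no molecular identifiers were used, a count is a read and not a molecule, and the intervals cover counting error only. An average of at least 10 CPM over the 4 libraries was reached by 74 genes, 48 of the large subunit, 25 of the small subunit and MRPS36. Differences are log2 of (CPM + 1) over (CPM + 1) of the libraries compared, and "past 1.5-fold" means beyond 0.585 on that scale.

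Set per kilobase of exon, the level of these genes varied widely while their order hardly changed. MRPL14, a large subunit protein at the interface between subunits, stood at the top with 904 CPM per kb under 13cRA, 785 under doxazosin, 798 under the combination and 841 under DMSO. MRPL15 followed at a mean of 209 CPM per kb over the 4 libraries, then MRPL51 at 187, MRPS21 at 169, MRPS7 at 167 and MRPL27, a protein near the catalytic centre, at 144. MRPL14 stood clear of the next gene in every library, while from MRPL15 to MRPS7 the ranges of neighbours over the libraries overlapped. At the low end of the 74 genes, MRPL46 averaged 1.75, MRPL19 6.98 and MRPS17 7.08 CPM per kb, and the ranges of the last pair overlapped. The median over all 78 genes was 33.2 CPM per kb under 13cRA, 36.8 under doxazosin, 38.9 under the combination and 37.8 under DMSO. The ranks of the levels in CPM correlated with those in DMSO at a Spearman rho of 0.94 for 13cRA, 0.97 for doxazosin and 0.95 for the combination, across 74 genes that share their libraries.

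The spread over the libraries was small for most of these genes. The highest library held 1.31 times the CPM of the lowest at the median of the 74 genes, against 1.498 times for 7581 protein-coding genes with the same minimum. It stayed under 1.5 times for 58 of the 74 genes (78.4%), against 50.2% of the protein-coding genes. On CPM, the 13cRA library was the lowest of the 4 for 42 genes, doxazosin for 11, the combination for 12 and DMSO for 9. The same count is not given for all protein-coding genes, so it does not set these genes apart from others. MRPL58, which frees peptides from stalled ribosomes, differed little on CPM: 104 CPM under 13cRA, 101 under doxazosin, 103 under the combination and 103 under DMSO. With other scalings its log2 difference of 13cRA from DMSO was -0.33 (TMM factors) and -0.29 (DESeq2 factors).

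**Figure D1:**
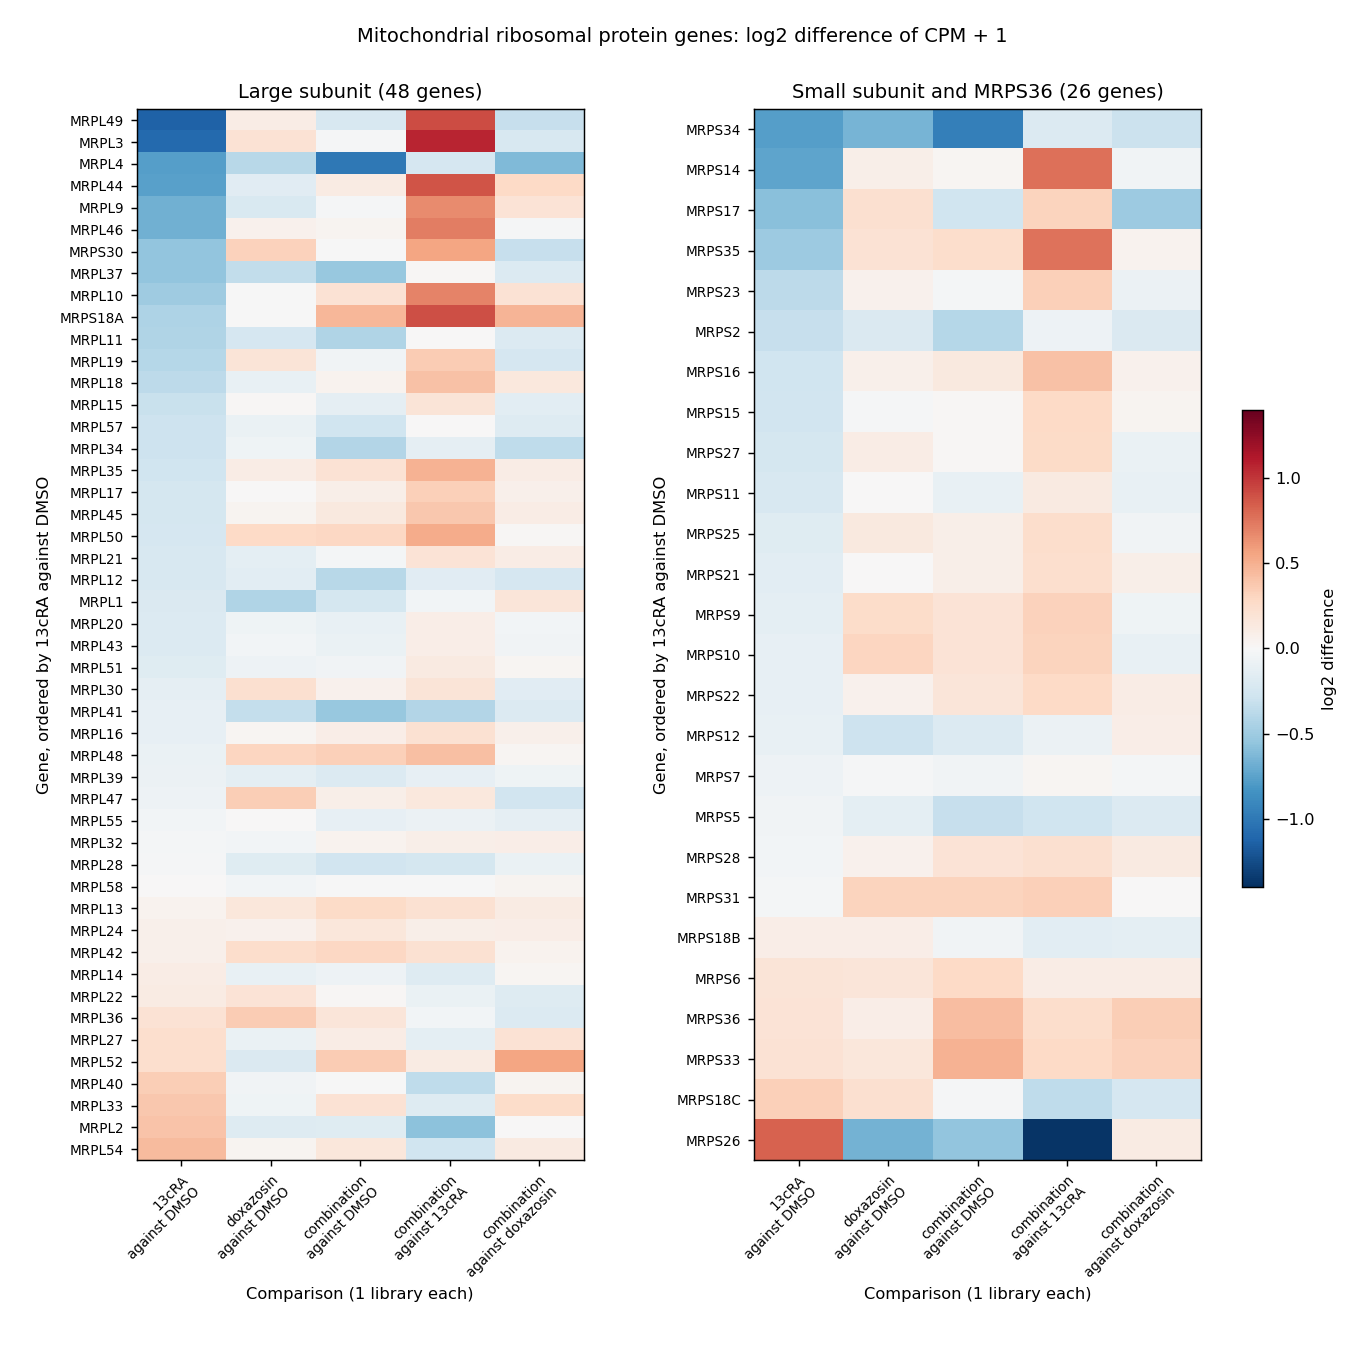
Heat map of the log2 difference of CPM + 1 for the 74 genes (rows, large subunit on the left, small subunit and MRPS36 on the right) in 5 comparisons of 1 library each (columns). Blue marks lower and red higher values in the first-named library, and the first column holds 55 lower genes and 19 higher ones.

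Under 13cRA against DMSO most of these genes were lower by a small amount, and 9 were lower past 1.5-fold. The median log2 difference was -0.16, with 55 genes lower and 19 higher. For all protein-coding genes the median was -0.05, and 54.3% were lower. Of all protein-coding genes 13.4% were lower past 1.5-fold and 11.3% higher, so the 9 lower genes and the 1 higher gene of 74 are not more than the background. Other scalings moved the whole distribution: with TMM factors the median of all protein-coding genes was -0.38 and with DESeq2 size factors -0.34, and 68 of the 74 genes were then lower with either, against 77.0% and 74.6% of all protein-coding genes. Relative to all protein-coding genes the median of the 74 was -0.10 on CPM, -0.11 with TMM and -0.11 with DESeq2. In thinned cells with 4000 to 4600 genes it was -0.0448, from a median of -0.0385 for these genes and 0.0063 for all protein-coding genes, with 3 genes past 1.5-fold in place of 10.

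Both subunits were lower under 13cRA. The 48 large subunit genes had a median of -0.19, with 35 lower and 13 higher. The 25 small subunit genes had a median of -0.13, with 20 lower and 5 higher. All protein-coding genes had a median of -0.05, and 54.3% were lower. With TMM factors 91.7% of the large subunit genes and 92.0% of the small subunit genes were lower, against 77.0% of all protein-coding genes. Within the large subunit the proteins with a bacterial homologue (29 genes) and those found only in mitochondria (19 genes) both had a median of -0.19. Within the small subunit the medians were -0.13 for 15 genes with a homologue and -0.14 for 10 without.

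MRPL49, a mitochondrion-specific protein of the large subunit, was the lowest. It stood at 44.2 CPM (41.5 to 47.0) under 13cRA, 106 (103 to 109) under doxazosin, 83.9 (81.8 to 86.1) under the combination and 97.9 (95.2 to 101) under DMSO. Under 13cRA alone it was below every other library and its interval met none of theirs, with a difference of -1.13 from DMSO. MRPL3, a homologue of a bacterial protein that reaches the catalytic centre, stood at 114 CPM (109 to 118) under 13cRA, 279 (274 to 283) under doxazosin, 238 (235 to 242) under the combination and 242 (237 to 246) under DMSO. It too was low in the 13cRA library alone, with a difference of -1.08 from DMSO. MRPL44, whose fold resembles an RNA-cutting enzyme and whose mutations cause a cardiomyopathy, stood at 26.6 CPM under 13cRA, 40.8 under doxazosin, 49.7 under the combination and 45.7 under DMSO. MRPS14, a small subunit homologue, stood at 69.0 CPM under 13cRA, 123 under doxazosin, 118 under the combination and 116 under DMSO. Both were again lowest under 13cRA alone, by -0.76 and -0.74 from DMSO.

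MRPS34 and MRPL4 had another pattern, with every treated library below DMSO. MRPS34, a small subunit protein whose mutations cause Leigh syndrome, stood at 93.1 CPM (89.1 to 97.1) under 13cRA, 101 (98.1 to 104) under doxazosin, 81.6 (79.6 to 83.7) under the combination and 159 (156 to 163) under DMSO. MRPL4, a large subunit protein of the exit tunnel, stood at 25.1 CPM (23.1 to 27.2) under 13cRA, 33.1 (31.5 to 34.8) under doxazosin, 21.2 (20.2 to 22.3) under the combination and 43.5 (41.7 to 45.4) under DMSO. For both, the combination was the lowest library and DMSO stood apart from the other 3. All 3 differences rest on the same DMSO library. In thinned cells with 4000 to 4600 genes, the 13cRA difference of MRPL4 was of the opposite sign, at 0.29. Of the 74 genes 20 were lower in all 3 treatments, against 22.4% of all protein-coding genes, and 9 were higher in all 3, against 15.9%. MRPL9, MRPL46 and MRPS17 were the other genes lower past 1.5-fold under 13cRA, at -0.68, -0.67 and -0.59. Exons of other genes overlap 21.4% of the exon length of MRPL4, 38.5% of that of MRPL9, 11.3% of that of MRPL46 and 27% of that of MRPS17. For MRPS34 the overlap is 0%.

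The single gene higher past 1.5-fold under 13cRA was MRPS26, a mitochondrion-specific small subunit protein. It stood at 30.4 CPM (28.2 to 32.8) under 13cRA, 10.2 (9.26 to 11.1) under doxazosin, 11.1 (10.3 to 11.9) under the combination and 16.7 (15.5 to 17.9) under DMSO. The 13cRA level was the highest and both libraries with doxazosin lay below DMSO. The proportion of thinned cells in which it was counted did not follow, at 27.7% (exact 95% binomial interval 22.2 to 33.7) under 13cRA and 29.9% (24.97 to 35.2) under DMSO. In thinned cells with 4000 to 4600 genes its 13cRA difference was of the opposite sign, at -0.46. MRPL54, a mitochondrion-specific protein of the large subunit, was next at 88.0 CPM under 13cRA and 64.6 under DMSO. MRPL2, which lies near the catalytic centre, had 65.0 CPM under 13cRA and 49.0 under DMSO. MRPL33, MRPL40 and MRPS18C were higher by 0.38, 0.35 and 0.34. These 6 kept a positive sign with TMM and DESeq2 factors, while the other 13 genes that were higher on CPM turned lower with both.

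**Figure D2:**
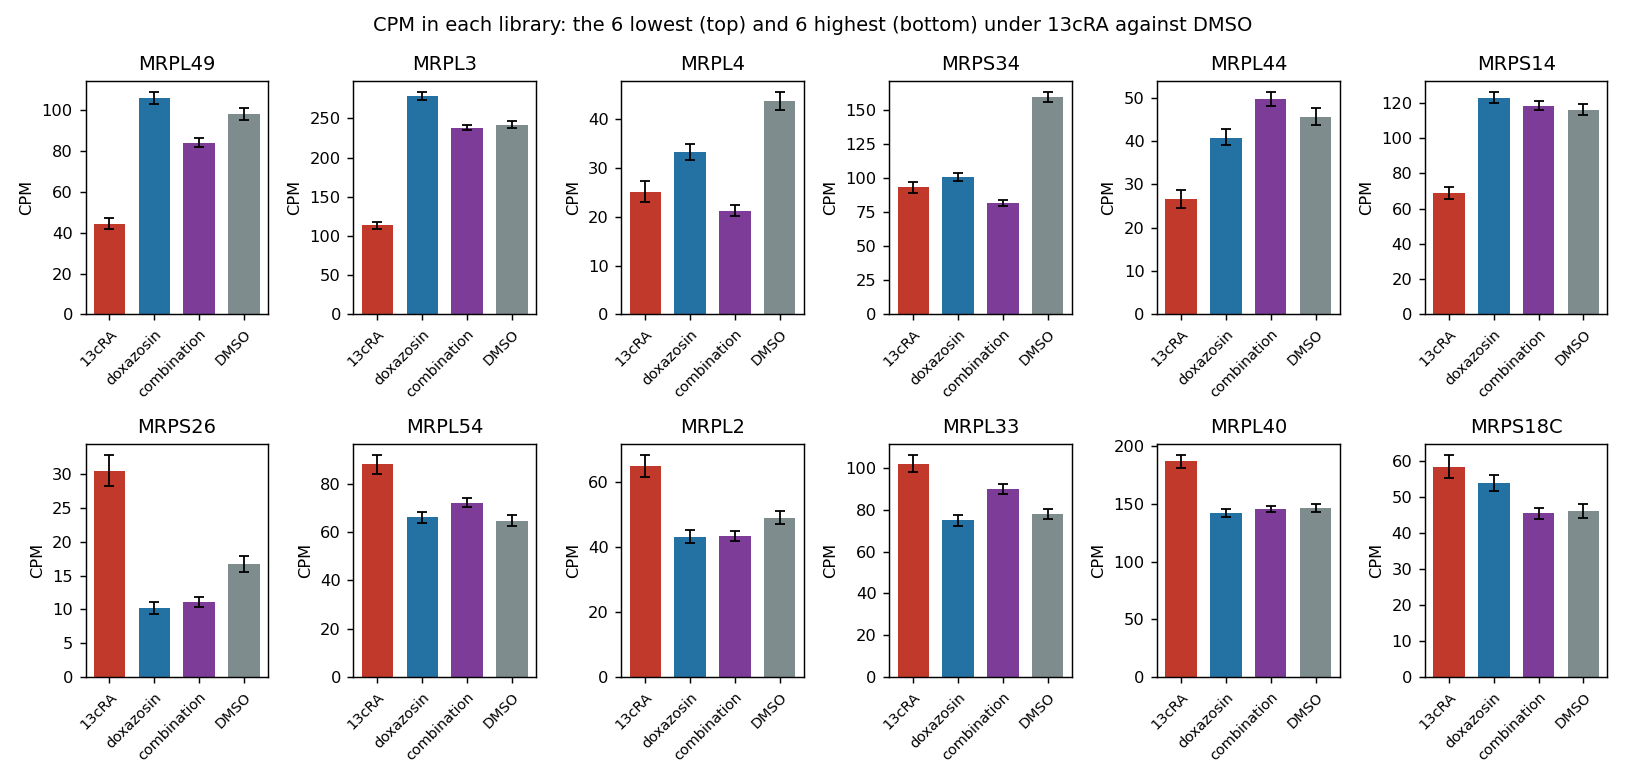
CPM (y axis, from 0) of the 6 genes with the lowest (top) and the 6 with the highest (bottom) log2 difference of 13cRA from DMSO, as 1 bar per library with the exact 95% Poisson interval of its count. MRPL49 and MRPL3 are low in the 13cRA bar alone, MRPS34 and MRPL4 in all 3 treated bars, and MRPS26 is high under 13cRA and low under doxazosin and the combination.

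The promoters of the genes with these patterns are shown for their sequence context, as the first listed window of RefSeq from 250 bases before to 50 after the start of the gene (GRCh38.p14). A window was found for 69 of the 78 genes. Both strands were searched for the letters CCGGAAG, a site of ETS factors such as GABPA, for GCATGCGC, a site of NRF1, and for CACGTG, the E-box bound by MYC and MYCN. These regulators are known to act on genes of mitochondrial proteins. Capitals mark matches, and the other strand reads CTTCCGG for the ETS letters. The genes are MRPL49 (chr11:65121933-65122232, plus strand), MRPL3 (chr3:131502922-131503221, minus strand), MRPS34 (chr16:1773085-1773384, minus strand), MRPL4 (chr19:10251701-10252000, plus strand) and MRPS26 (chr20:3045802-3046101, plus strand).
MRPL49: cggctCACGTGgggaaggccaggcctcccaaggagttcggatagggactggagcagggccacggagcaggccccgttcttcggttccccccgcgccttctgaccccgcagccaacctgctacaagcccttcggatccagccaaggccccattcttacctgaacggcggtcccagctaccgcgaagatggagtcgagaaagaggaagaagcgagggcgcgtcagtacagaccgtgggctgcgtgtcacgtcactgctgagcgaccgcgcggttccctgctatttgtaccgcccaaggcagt
MRPL3: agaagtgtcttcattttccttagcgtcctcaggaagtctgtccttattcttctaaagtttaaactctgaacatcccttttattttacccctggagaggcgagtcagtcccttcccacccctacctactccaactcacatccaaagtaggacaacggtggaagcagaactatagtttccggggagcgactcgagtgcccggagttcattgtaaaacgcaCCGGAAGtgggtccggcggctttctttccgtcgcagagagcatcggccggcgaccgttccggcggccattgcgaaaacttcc
MRPS34: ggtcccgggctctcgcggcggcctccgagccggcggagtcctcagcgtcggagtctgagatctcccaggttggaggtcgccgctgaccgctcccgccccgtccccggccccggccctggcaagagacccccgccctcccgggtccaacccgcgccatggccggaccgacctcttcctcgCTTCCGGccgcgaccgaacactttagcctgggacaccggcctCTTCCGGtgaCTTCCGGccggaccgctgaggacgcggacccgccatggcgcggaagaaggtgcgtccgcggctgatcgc
MRPL4: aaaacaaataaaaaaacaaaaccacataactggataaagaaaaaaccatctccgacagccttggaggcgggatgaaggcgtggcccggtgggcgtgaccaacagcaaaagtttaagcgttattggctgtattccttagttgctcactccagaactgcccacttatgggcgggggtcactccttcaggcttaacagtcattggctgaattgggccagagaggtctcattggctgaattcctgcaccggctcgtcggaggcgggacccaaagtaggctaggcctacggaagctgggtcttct
MRPS26: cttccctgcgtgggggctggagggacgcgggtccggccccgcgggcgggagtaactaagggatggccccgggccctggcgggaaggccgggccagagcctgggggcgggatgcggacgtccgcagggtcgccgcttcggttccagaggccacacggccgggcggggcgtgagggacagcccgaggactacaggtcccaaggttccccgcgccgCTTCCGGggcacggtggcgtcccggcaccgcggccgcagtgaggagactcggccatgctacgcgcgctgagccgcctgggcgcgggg

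MRPS34 held 3 matches to the ETS letters, MRPL3 and MRPS26 held 1 each, MRPL49 held 1 E-box at the far end of the window, and MRPL4 held none of the 3 motifs. The ETS letters were found in 29 of 69 windows of these genes (42.0%), against 14.4% of 15301 windows of protein-coding genes. NRF1 letters were found in 6 windows (8.70%), against 4.25%, and the E-box in 6 (8.70%), against 8.87%. MRPL17 held 3 NRF1 matches and MRPS22 held 3 ETS matches. A match describes the letters alone, and no match says nothing about the factor. The 27 genes with ETS letters had a median 13cRA difference of -0.11 and the 39 without of -0.24, while under doxazosin both medians were 0.01. For NRF1 letters the 13cRA medians were 0.10 for 6 genes with them and -0.18 for 60 without. For the E-box they were -0.07 for 6 genes with it and -0.16 for 60 without. Whether any motif has a part in the differences was not tested. GABPA itself had 20.3 CPM under 13cRA, 42.1 under doxazosin, 32.6 under the combination and 28.7 under DMSO. Its partner GABPB1 had 20.4 CPM under 13cRA, 59.5 under doxazosin, 38.4 under the combination and 37.5 under DMSO. Both were lowest under 13cRA and highest under doxazosin. NRF1 itself ran the other way on CPM, with a difference of 0.25 of 13cRA from DMSO. GABPA, GABPB1 and NRF1 are among 7 regulators of mitochondrial biogenesis that averaged at least 10 CPM. Under 13cRA against DMSO 5 of these were higher and 2 lower, with a median of 0.25. With TMM factors that median was -0.07, with 4 lower.

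Doxazosin against DMSO left these genes nearly where they were. The median difference was 0.0077, with 40 genes higher and 34 lower. For all protein-coding genes the median was -0.02, and 53.4% were lower. With DESeq2 factors 26 of the mitochondrial ribosomal protein genes were lower, against 46.1% of all protein-coding genes. Past 1.5-fold, 2 genes were lower and none was higher, where 2.43% of all protein-coding genes were lower and 2.6% higher (5.03% in all). The genes were MRPS26 at -0.66 and MRPS34 at -0.65. Next came MRPL1, a protein of the stalk by which spent tRNA leaves, with 34.0 CPM under doxazosin and 45.7 under DMSO, and then MRPL4, given above, at -0.38. MRPL37, with 217 CPM under doxazosin and 275 under DMSO, and MRPL41 followed at -0.34 and -0.33. At the other end were MRPL36 at 0.36, MRPL47 at 0.35, MRPS30 at 0.32, MRPS31 at 0.31, and MRPL48 and MRPS10 at 0.30 each. MRPS30, a large subunit protein, had 80.1 CPM under doxazosin and 63.9 under DMSO, and was the lowest under 13cRA at 43.2. The small subunit genes had a median of 0.07, with 18 of 25 higher, and the large subunit genes -0.04, with 21 of 48 higher. Of all protein-coding genes 46.6% were higher. With DESeq2 factors the medians were 0.119 and 0.006. Higher were then 80.0% of the small and 56.25% of the large subunit genes, against 53.9% of all protein-coding genes. Of the 10 mitochondrion-specific small subunit genes 8 were higher, and the other 2 were MRPS26 and MRPS34.

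The combination against DMSO gave a median of 0.0132, with 38 genes higher and 36 lower, a median that was -0.0072 with TMM and -0.0378 with DESeq2 factors. For all protein-coding genes the medians were -0.02 on CPM, -0.04 with TMM and -0.07 with DESeq2 factors, and 53.0% were lower on CPM. Past 1.5-fold, 2 genes were lower, MRPL4 at -1.003 and MRPS34 at -0.96, and none was higher, where 5.99% of all protein-coding genes were lower and 6.09% higher. MRPL37 had 189 CPM under the combination and 275 under DMSO. MRPL41 had 23.0 CPM under the combination and 33.6 under DMSO, and MRPL11, at the base of the stalk that recruits translation factors, 110 against 146 CPM. With MRPS26 at -0.55 these complete the lowest 6. The highest were MRPS33, with 140 CPM under the combination and 99.7 under DMSO, and MRPS18A, with 86.6 CPM under the combination and 62.3 under DMSO. MRPS18A is 1 of a set of paralogues that descend from a single bacterial protein, and 47.0% of its exon length overlaps RSPH9 on the other strand. MRPS36, the gene now placed outside the ribosome, had 60.0 CPM under the combination and 44.1 under DMSO. MRPL52, MRPL48 and MRPS31 followed at 0.35, 0.33 and 0.32.

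**Figure D3:**
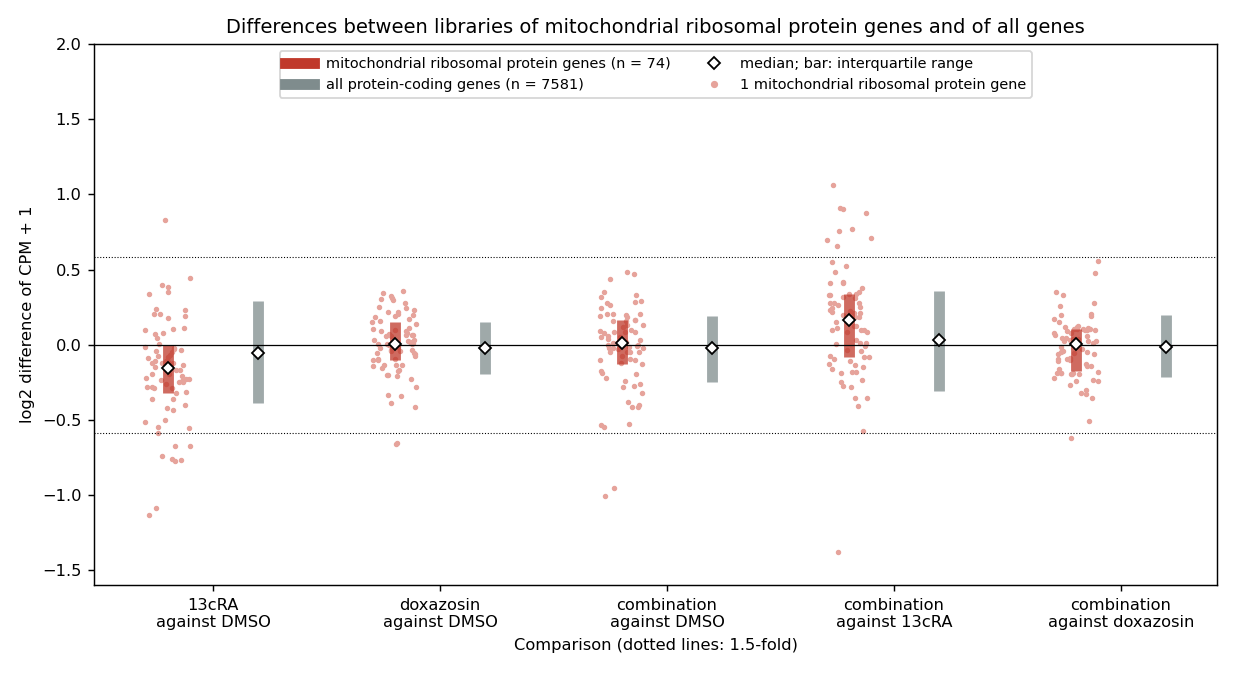
Log2 difference of CPM + 1 (y axis) in 5 comparisons of 1 library each, with a point per gene for the 74 mitochondrial ribosomal protein genes, bars for the interquartile range and diamonds for the medians, beside 7581 protein-coding genes. The red median lies at -0.16 for 13cRA against DMSO and at 0.17 for the combination against 13cRA, and near 0 in the other 3 comparisons, and the red bars are shorter than the grey ones.

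Most of these genes were higher with both drugs than with 13cRA alone. For the combination against 13cRA the median was 0.17, with 50 genes higher and 24 lower, against 0.03 for all protein-coding genes, of which 52.1% were higher. Other scalings again moved all genes: with TMM factors 69 of the 74 were higher, against 74.7% of all protein-coding genes, and with DESeq2 factors 66, against 70.3%. Relative to all protein-coding genes the median was 0.14 on CPM and with either set of factors. Past 1.5-fold, 9 genes were higher and 1 was lower, where 13% of all protein-coding genes were higher and 11.4% lower. The highest were MRPL3 at 1.06, MRPL49 at 0.91 and MRPS18A at 0.90, and the others were MRPL44, MRPS14, MRPS35, MRPL46, MRPL10 and MRPL9. MRPL10 anchors the stalk of the large subunit and had 263 CPM under the combination and 162 under 13cRA. MRPS35, of the small subunit, had 93.5 CPM under the combination and 54.9 under 13cRA, a difference that was of the opposite sign, at -0.16, in thinned cells with 4000 to 4600 genes. The lowest was MRPS26 at -1.38, which was 0.0741 in those cells, followed by MRPL2 at -0.57 and MRPL41 at -0.41. This comparison and that of 13cRA with DMSO share the 13cRA library. In cells with at most 15% MT- counts the median was 0.0352.

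Both drugs against doxazosin alone differed less. The median for the combination against doxazosin was 0.0059, with 38 genes higher and 36 lower. For all protein-coding genes the median was -0.01, and 51.5% were lower. Other scalings moved all genes here too. With TMM factors 45 were lower and with DESeq2 factors 53, against 56.9% and 64.0% of all protein-coding genes. The medians were then -0.03 and -0.09, against -0.05 and -0.11 for all protein-coding genes. Only MRPL4 was past 1.5-fold, lower at -0.62, where 5.17% of all protein-coding genes were lower and 6.4% higher. MRPS17 had 13.7 CPM under the combination and 19.8 under doxazosin, and MRPL34 was at -0.36. MRPL52 was the highest, with 174 CPM under the combination and 118 under doxazosin, followed by MRPS18A at 0.48 and MRPS36 at 0.35.

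The 13cRA difference without doxazosin (13cRA against DMSO) and with it (combination against doxazosin) use no common library. The sign was the same for 47 of 74 genes (63.5%), 32 of them lower in both, against 62.7% of all protein-coding genes. Across the 74 genes, which are not independent replicates, Pearson's r was 0.37, against 0.52 across all protein-coding genes. By ranks the gap was smaller, with a Spearman rho of 0.32 against 0.36. MRPL4 was the 1 gene lower past 1.5-fold in both. The doxazosin difference without 13cRA (doxazosin against DMSO) and with it (combination against 13cRA) had the same sign for 52 of 74 genes (70.3%), against 59.9% of all protein-coding genes. Its Pearson's r was 0.51, against 0.27, and its Spearman rho 0.51, against 0.28. MRPS26 was the 1 gene lower past 1.5-fold in both doxazosin differences. The counts of signs are on CPM. Over CPM, TMM and DESeq2 factors, 13 genes took either sign in 13cRA against DMSO and 17 in the combination against doxazosin. In doxazosin against DMSO 8 did so, and in the combination against 13cRA 19.

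Further genes are given for what their products do. MRPS12, at the decoding centre, had 117 CPM under 13cRA, 103 under doxazosin, 110 under the combination and 126 under DMSO. MRPL12, a stalk protein that also binds the mitochondrial RNA polymerase, had 59.6 CPM under 13cRA, 62.9 under doxazosin, 53.1 under the combination and 69.6 under DMSO, and 68.2% of its exon length overlaps another annotated gene. MRPL45, which ties the ribosome to the inner membrane, had 144 CPM under 13cRA, 175 under doxazosin, 187 under the combination and 171 under DMSO. MRPS27, an RNA-binding protein of the small subunit, had 152 CPM under 13cRA, 195 under doxazosin, 183 under the combination and 181 under DMSO. MRPS12 and MRPL12 were highest under DMSO, while MRPL45 and MRPS27 were lowest under 13cRA.

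The remaining 4 genes averaged under 10 CPM. MRPL23, a large subunit homologue, is singled out after its values were seen: it had 5.65 CPM (4.72 to 6.72) under 13cRA, 5.98 (5.29 to 6.73) under doxazosin, 5.67 (5.13 to 6.24) under the combination and 17.2 (16.0 to 18.4) under DMSO. DMSO stood apart from the other 3, whose intervals overlapped. A count of MRPL23 was seen in 6.43% (3.72 to 10.2) of thinned cells under 13cRA, 14.0% (9.87 to 19.2) under doxazosin, 12.2% (8.56 to 16.7) under the combination and 34.1% (29.03 to 39.6) under DMSO. MRPS24 averaged 2.95 CPM and MRPL38 0.742 CPM. MRPL53 had 0 counts in every library, which allows up to 0.133 CPM under 13cRA, 0.0650 under doxazosin, 0.0416 under the combination and 0.0623 under DMSO (3 counts each), and 45.2% of its exon length overlaps CCDC142. Its pseudogene MRPL53P1 had 2.92 CPM under 13cRA, 0.217 under doxazosin, 0.596 under the combination and 0.561 under DMSO, all above those limits, which therefore hold only for reads counted in the MRPL53 row. How the authors treated reads in overlapping genes is not given in the sources used here.

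The mRNAs of MT- genes differed in the other direction under 13cRA. Their 13 mRNAs together took 8.70% of counts under 13cRA, 5.72% under doxazosin, 5.51% under the combination and 5.54% under DMSO. The mRNAs were all higher under 13cRA than DMSO, by a median of 0.65 that was 0.32 with TMM and 0.36 with DESeq2 factors. They ranged from MT-ND3, with 671 CPM under 13cRA and 510 under DMSO, to MT-ND6, with 747 CPM under 13cRA and 429 under DMSO. The other mRNAs lay between these, MT-CO1 at 0.43, MT-ND2 at 0.57, MT-ND1 at 0.59, MT-ATP6 at 0.60, MT-ATP8 at 0.62, MT-CO3 at 0.65, MT-ND4L at 0.69, MT-CYB and MT-CO2 at 0.73, MT-ND4 at 0.77 and MT-ND5 at 0.78. All 13 mRNAs were lower in the combination than in 13cRA, by a median of -0.68. The ribosomal RNAs did not follow the mRNAs. MT-RNR1 had 8700 CPM under 13cRA, 7235 under doxazosin, 6262 under the combination and 8063 under DMSO. MT-RNR2 had 40968 CPM under 13cRA, 47272 under doxazosin, 41171 under the combination and 44289 under DMSO. There were 9.54 MT- mRNA counts per count of the 78 genes under 13cRA, 5.72 under doxazosin, 5.53 under the combination and 5.52 under DMSO. With MT- counts left out of the total, the 78 genes summed to 10558 CPM under 13cRA, 11255 under doxazosin, 11116 under the combination and 11251 under DMSO, so 13cRA stayed the lowest.

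Cell by cell, at 34000 counts each, the 78 genes gave a median of 300 counts (interquartile range 270 to 340) in 249 cells under 13cRA, 338 in 235 cells under doxazosin, 343.5 in 270 cells under the combination and 336 (308 to 370) in 328 cells under DMSO. The median number of the 78 genes with a count was 47 under 13cRA, 61 under doxazosin, and 60 under the combination and under DMSO. Before thinning, the median gene of the 74 was counted in 69.0% of kept 13cRA cells and 91.8% of kept DMSO cells, and after it in 65.9% and 85.1%. At equal depth, the proportion of cells with a count was lower under 13cRA than DMSO for 73 of the 74 genes, where it was lower for 89.1% of all protein-coding genes. It was lower for 18 of the 19 genes that had the higher CPM under 13cRA, and for 2664 of the 3463 such protein-coding genes (76.9%). Under doxazosin the share was lower than in DMSO for 31 of the 74 genes, where 43.7% of all protein-coding genes were lower, and under the combination for 37, where 55.7% were. The median of MT- mRNA counts per cell was 2897 under 13cRA, 1809 under doxazosin, 1882 under the combination and 1811 under DMSO. The DMSO median of the 78 genes was exceeded by 28.1% of 13cRA cells, 52.3% of doxazosin cells and 55.9% of combination cells, and that of the MT- mRNAs by 90.8%, 49.4% and 54.8%.

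**Figure D4:**
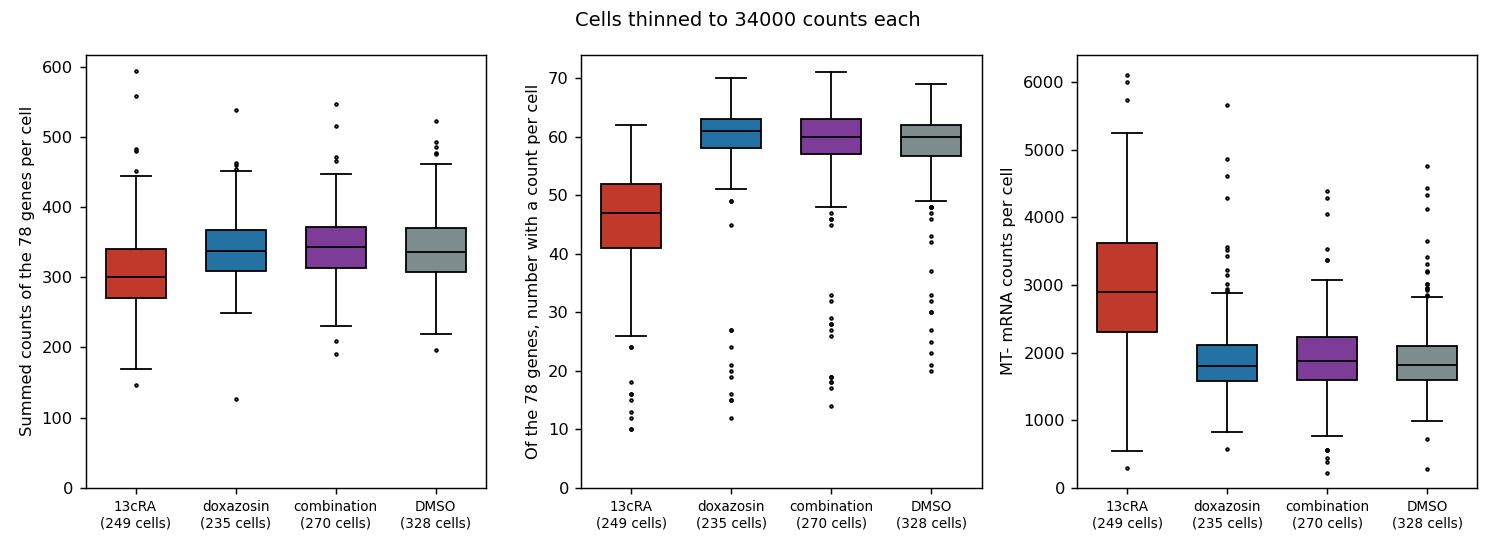
Box plots over cells thinned to 34000 counts, by treatment: summed counts of the 78 genes (left), number of the 78 genes with a count (middle) and MT- mRNA counts (right), with the median, the interquartile range and whiskers to 1.5 times that range. The 13cRA cells have the lowest medians on the left and in the middle (300 and 47) and the highest on the right (2897). Cells of 1 sample are not replicates.

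From 5% to 25% MT- counts, the level of these genes fell from class to class under 13cRA, under DMSO and, by less, under the combination. As CPM over non-MT counts, the 78 genes summed to 10992 in 42 cells with 5% to 10% MT- counts, 10819 in 174 cells with 10% to 15%, 9833 in 99 cells with 15% to 25%, and 7875 in the 29 cells over 25% that the filter set aside. In DMSO they had 11769 in 123 cells with 5% to 10%, 11036 in 212 cells with 10% to 15% and 10496 in 16 cells with 15% to 25%. The 17 DMSO cells over 25% had 13157, a class that was the highest in DMSO and the lowest under 13cRA. Doxazosin cells had 11428, 11087 and 11367 in the classes from 5% to 25%, from 94, 124 and 20 cells. Combination cells had 11237, 11062 and 11047 in these classes, from 133, 135 and 15 cells. Over 25%, doxazosin had 9701 in 7 cells and the combination 10966 in 16 cells. Classes under 5% held few cells and are not given. At equal MT- share the 13cRA value was the lowest of the 4 libraries in both classes from 5% to 15%. Over single cells the Spearman correlation with the MT- mRNA share was weak in every library. It was -0.17 under 13cRA, 0.03 under doxazosin, -0.08 under the combination and -0.20 under DMSO. With nuclear oxidative phosphorylation genes it was 0.34 under 13cRA, 0.34 under doxazosin, 0.29 under the combination and 0.45 under DMSO, over cells that share a library and the same total of counts.

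On CPM, other genes of mitochondrial translation did not share 1 direction under 13cRA. Against DMSO, 13cRA gave a median of -0.02 for 18 genes of mitoribosome assembly (2 higher and 2 lower past 1.5-fold), -0.01 for 12 translation factors (2 and 2), -0.16 for 13 mitochondrial aminoacyl-tRNA synthetases (1 and 1) and -0.19 for 11 genes of mitochondrial DNA transcription and replication (none and 2). Of all protein-coding genes 11.3% were higher past 1.5-fold and 13.4% lower, so these small counts do not set the lists apart. For 5 mitoribosomal proteins with other names the median was 0.17, with GADD45GIP1 past 1.5-fold at 130 CPM under 13cRA, 55.1 under doxazosin, 60.0 under the combination and 83.7 under DMSO. The 77 nuclear oxidative phosphorylation genes had a median of -0.05 (3 higher and 7 lower past 1.5-fold) on CPM. Of them 41 were lower, where 54.3% of all protein-coding genes were. Their medians were -0.384 with TMM and -0.345 with DESeq2 factors. With either, 65 were lower (84.4%), against 77.0% and 74.6% of all protein-coding genes. The 82 cytosolic ribosomal protein genes had 0.20 on CPM, but -0.13 with TMM and -0.09 with DESeq2 factors. With TMM factors the medians of the other lists were all negative too, -0.345 for assembly, -0.33 for translation factors, -0.49 for the synthetases, -0.53 for DNA transcription and replication and -0.17 for the proteins with other names, beside -0.38 for all protein-coding genes.

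Among the assembly genes, C1QBP, which binds mitochondrial RNA and supports translation, had 173 CPM under 13cRA, 86.2 under doxazosin, 102 under the combination and 92.0 under DMSO. DHX30, an RNA helicase needed for ribosome assembly, had 84.5 CPM under 13cRA, 50.0 under doxazosin, 47.6 under the combination and 48.0 under DMSO. NGRN, which stabilises MT-RNR2, had 19.4 CPM under 13cRA, 23.0 under doxazosin, 17.6 under the combination and 32.8 under DMSO. C1QBP and DHX30 were highest under 13cRA and NGRN was highest under DMSO. Of the factors, GFM2, which helps recycle ribosomes, had 18.5 CPM under 13cRA, 45.1 under doxazosin, 34.9 under the combination and 38.6 under DMSO. GFM1, the elongation factor that moves the ribosome along, had 35.7 CPM under 13cRA, 51.0 under doxazosin, 57.8 under the combination and 58.8 under DMSO. OXA1L, the membrane insertase that receives the new proteins, had 212 CPM under 13cRA, 125 under doxazosin, 244 under the combination and 141 under DMSO, and so was high in both libraries with 13cRA. GFM2 and GFM1 were lowest under 13cRA alone, as MRPL49 and MRPL3 were. POLRMT, the mitochondrial RNA polymerase, had 54.2 CPM under 13cRA, 27.4 under doxazosin, 23.1 under the combination and 37.5 under DMSO. POLG, the mitochondrial DNA polymerase, had 8.70 CPM under 13cRA, 14.3 under doxazosin, 11.3 under the combination and 17.7 under DMSO. TFB2M, from the same list, had 24.3, 41.9, 35.5 and 38.7 CPM in that order. AARS2, the mitochondrial alanyl-tRNA synthetase, had 35.1 CPM under 13cRA, 16.6 under doxazosin, 16.7 under the combination and 18.2 under DMSO. FARS2, another synthetase, ran the other way, with 10.6, 17.5, 14.9 and 20.2 CPM in that order. Of the 13 synthetases, 9 were lower and 4 higher on CPM under 13cRA than DMSO, where 54.3% of all protein-coding genes were lower. MYCN, amplified in this line, had 1168 CPM under 13cRA, 759 under doxazosin, 815 under the combination and 760 under DMSO.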

How the data were processed

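The authors deposited raw counts, whole numbers of reads per gene ID and cell, for 1287 CHP134 cells of 4 treatments (1 sample each), from full-length libraries without molecular identifiers made on a nanowell chip, per the labels' protocols. The submitters' processing notes name bcl2fastq, fastp 0.23.3, STAR 2.7.8a, featureCounts, Seurat 4.3.0, GRCh38.p13 and GRCh37. Which build was used for the counts, the annotation release, strandedness and the handling of shared reads were not given in the sources used here. Symbols, types and exon lengths come from GENCODE 29 (GRCh38): 60437 IDs carried a symbol and 214 did not.

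Cells with at least 500 genes and at most 25% MT- counts were kept, 1197 of 1287 (21 fell below the gene minimum, 70 above the MT- maximum, 1 on both). Doublets were not called, as wells had been selected by imaging, and 4 kept cells exceeded 9000 genes. For each sample the kept cells were added up and expressed as CPM of all counts (total 1e+06), with a pseudocount of 1 CPM on the log2 scale. The depth per sample ranged from 22636509 to 72192743 counts. With 1 sample per treatment no test was run, and intervals are exact at 95% (Poisson for CPM, binomial for shares). Genes averaging at least 10 CPM entered counts and medians. Shares and per-cell values use cells thinned to 34000 counts (about the 10th percentile, seed 7), which left out 69 cells for 13cRA, 4 for doxazosin, 17 for the combination and 25 for DMSO.

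The members and lists were chosen with earlier results of these data known. Any member could be named. In full were given the 6 highest and 6 lowest against DMSO, 3 and 3 against the single drugs, the highest and lowest per kb, 8 members with a known role, and up to 3 genes with the largest differences from each other list. Alternatives were TMM factors (edgeR 4.0.16), DESeq2 1.42.0 size factors, CPM over counts outside MT- genes, per-cell means, thinned sums, a pseudocount of 5 CPM, other filters on cells and genes, and other fold thresholds. Chosen after seeing the data were thinned cells with 4000 to 4600 genes and leaving out members with at least 20% exon overlap. Promoter windows come from RefSeq (GRCh38.p14). The steps were tested on simulated data. Python 3.11.15, numpy 2.4.6, scipy 1.17.1, pandas 2.3.3 and R 4.3.3 were used.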

Additional observations from a re-analysis of the deposited data

Results flagged for a closer look

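The table also holds 79 rows of mitoribosomal pseudogenes, which the rule for the genes leaves out. Their summed level was 14.53 CPM under 13cRA, 9.07 under doxazosin, 9.06 under the combination and 9.07 under DMSO, and is given because the 13cRA library lies above DMSO in rows that no comparison uses. MRPS31P4 had 3.80 CPM under 13cRA and 3.36 under DMSO, MRPS31P5 had 2.16 under 13cRA and 1.43 under DMSO, and MRPL53P1 had 2.92 under 13cRA and 0.561 under DMSO. MRPL3P1 ran the other way, with 0.398 CPM under 13cRA and 1.87 under DMSO. Over the 4 libraries the pseudogene counts came to 10.4% of those of MRPS31, 6.80% of those of MRPS17 and 0.754% of those of MRPL3, so the levels of MRPS31 and MRPS17 are uncertain to that extent. MRPL53 itself had 0 counts, while MRPL53P1 was counted in every library, so the level of MRPL53 is uncertain. Whether reads were shared with the genes was not tested.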

How the results depend on the processing

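No paired analysis was possible because each treatment has 1 sample. The median log2 difference of 13cRA from DMSO was -0.1566 as reported, -0.4889 with TMM and -0.4498 with DESeq2 factors, -0.2463 with no cell filter and -0.0385 in thinned cells with 4000 to 4600 genes (92 cells for 13cRA, 40 for doxazosin, 81 for the combination and 104 for DMSO). The combination against 13cRA gave 0.1662 as reported, 0.4762 with TMM, 0.4069 with DESeq2, 0.0352 with at most 15% MT- counts and 0.0543 in those thinned cells. With DESeq2 factors the combination was at -0.0378 against DMSO (0.0132 as reported) and at -0.0879 against doxazosin (0.0059 as reported). The number of genes past 1.5-fold for 13cRA against DMSO was 10 as reported, 25 with TMM, 20 with DESeq2, 5 with a minimum of 50 CPM and 3 in those thinned cells. As reported, 24.7% of all protein-coding genes were past 1.5-fold either way. Their median moved from -0.05 on CPM to -0.38 with TMM and -0.34 with DESeq2 factors. Shares of all protein-coding genes at the other settings and thresholds are not given. The counts in this paragraph therefore do not set these genes apart from others. For doxazosin against DMSO it was 2 as reported, 1 with a pseudocount of 5 CPM, with no cell filter, with at most 15% MT- counts or with a minimum of 50 CPM, and 5 in those thinned cells. For the combination against DMSO it was 2 as reported, 4 with DESeq2, per-cell means or thinned sums, 1 with a minimum of 50 CPM or without genes of at least 20% exon overlap, and 6 in those thinned cells. The combination against 13cRA gave 10 as reported, 26 with TMM and 18 with DESeq2. Against doxazosin it gave 1 as reported, 2 with DESeq2 or with at most 15% MT- counts, 6 in those thinned cells, and 0 with per-cell means, a pseudocount of 5 CPM, no cells over 9000 genes, a minimum of 50 CPM or no overlapping genes. A threshold of 0.32 on the log2 scale gave 25 genes for 13cRA, 9 for doxazosin and 15 for the combination against DMSO, 26 for the combination set against 13cRA and 9 for it against doxazosin. A 2-fold threshold gave 2 genes for 13cRA, 0 for doxazosin and 1 for the combination against DMSO, 2 for the combination set against 13cRA and 0 for it against doxazosin. The sign turned in the thinned cells with 4000 to 4600 genes for MRPL4 (0.2929) and MRPS26 (-0.4561) in 13cRA against DMSO, and for MRPS35 (-0.1608) and MRPS26 (0.0741) in the combination against 13cRA. The cause was not tested. Of 330 alternative values for the 25 differences past 1.5-fold, 290 stayed past it, 36 fell under it and 4 had the opposite sign. Settings that only change which genes are listed cannot move a gene's own difference. They account for 25 (no minimum CPM), 14 (minimum of 50 CPM) and 18 (no overlapping genes) of the values that stayed. The thinned cells with 4000 to 4600 genes gave 12 of the 36 and all 4 of opposite sign, with 7 of 23 values still past 1.5-fold. The other alternatives, with the values that could not move among them, gave 283 of 307. Those cells are few, and their genes per cell still differed (median 4178 under 13cRA and 4457 under DMSO). With 1 library per treatment, a treatment and its library cannot be told apart.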

Other observations

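The paralogues MRPS18A, MRPS18B and MRPS18C, which descend from a single bacterial protein and take different places in the ribosome, had different patterns. MRPS18A, in the large subunit, had 45.9 CPM under 13cRA, 62.0 under doxazosin, 86.6 under the combination and 62.3 under DMSO. MRPS18B, in the small subunit, had 281 CPM under 13cRA, 281 under doxazosin, 254 under the combination and 263 under DMSO. MRPS18C, in the small subunit at the place of the bacterial protein, had 58.4 CPM under 13cRA, 53.8 under doxazosin, 45.4 under the combination and 46.1 under DMSO. The combination was the highest library for MRPS18A and the lowest for MRPS18B and MRPS18C. Exons of other genes overlap 47.0% of the exon length of MRPS18A and 40.2% of that of MRPS18C.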
